A study of Bos taurus with 8 samples.

Results

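The BCL2 family sets whether a cell opens its mitochondria to start apoptosis, and 8 of its genes were examined here in bovine granulosa cells. BCL2, BCL2L1 (which encodes BCL-XL) and MCL1 are the pro-survival members, BAX and BAK1 the effectors, and BAD, BID and BCL2L11 (BIM) the BH3-only members that drive or release the effectors. They were chosen by gene symbol in the platform's annotation, which gave 12 probes for the 8 genes among 43794 probes and 15216 gene symbols. Of these, 8 probes for 5 genes (BCL2, BCL2L1, MCL1, BAX and BID) were bright enough to be tested, among 22675 probes. The tested probes with a gene symbol and a value on every array stood for 10155 genes.

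In a healthy cell the pro-survival proteins hold the effectors and the BH3-only proteins in check. When BH3-only proteins take up that capacity, BAX and BAK1 form pores in the outer mitochondrial membrane, cytochrome c leaves, and caspases are activated. Granulosa cells, which surround the oocyte and make oestradiol under FSH, die by apoptosis when a follicle becomes atretic, and the balance of BCL2 family members is commonly studied in that setting.

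RNA came from 4 Holstein heifers sampled at 8, 11 and 14 months of age, around puberty. At each age the heifer was given progesterone by an intravaginal device, its dominant follicle was removed, and FSH was injected before follicles were aspirated through the vaginal wall under ultrasound. Pooled material was extracted, the RNA was amplified linearly in 2 rounds, and it was hybridised on 8 arrays with 2 colours each. One set of 4 arrays sets 8 months against 14 months within each heifer, and the other set of 4 sets 11 months against 14 months. All groups share the hormone treatment and the breed, and no untreated animals are among these samples. Every sample is labelled as granulosa cells, whereas the series description mentions blastocysts, and that conflict could not be settled here.

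All 15 granulosa marker genes, among them FSHR, CYP19A1 and FOXL2, were measured. Their median log2 ratio per array, younger age over 14 months, lay between -0.48 and 0.02 at 8 months and between -1.19 and 0.23 at 11 months, the lowest in heifer 4 at 11 months. Single genes moved both ways, with 6 of the 15 fitted higher at 8 months. FSHR and CYP19A1 were fitted at -1.06 and -0.99, and CDH2 at 1.535 (adjusted p = 0.121, 0.275 and 0.013 in limma). FOXL2 was dim, above background in 3 of 4 heifers at 8 months, 1 of 4 at 11 months and 3 of 8 readings at 14 months. Median raw intensities ran from 220 to 329 per array and channel, and between 43.2% and 57.3% of probes were above background, defined as the mean plus 2 SD of the negative control spots. Genes of other cells also varied between the samples. Median log2 ratios of 12 measured motile cilia genes were 2.88, 3.92, -0.06 and 0.03 at 8 months in heifers 1 to 4, and 1.42, -0.17, 0.18 and 3.77 at 11 months. Those of 14 measured squamous epithelium genes were 3.50, 0.79, 1.81 and 3.15 at 8 months, and 0.16, 0.29, 0.06 and 0.77 at 11 months. Some of these genes were bright enough to be tested only through a younger age. TEKT1 was above background in 2 of 4 heifers at 8 months, 3 of 4 at 11 months and 2 of 8 readings at 14 months. For KRT5 the counts were 4 of 4, 1 of 4 and 1 of 8. Higher younger values are thus in part built into both medians. In bulk RNA, fewer cells of a type and less RNA per cell cannot be told apart.

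No member of the family changed between 8 and 14 months or between 11 and 14 months at an adjusted p under 0.05 in limma. Of the 5 measured genes, 4 were fitted higher at 8 than at 14 months and 4 higher at 11 than at 14 months, with BCL2 fitted lower in both comparisons. BCL2 passed the filter on dim probes only through its 14-month readings, so a lower younger value is in part built into its selection. The comparison of 8 with 14 months called 0 of the 5 members, against 3.84% of all tested probes, of which 735 rose and 136 fell. Over all probes that count was 0 without heifer 3, 36 without heifer 4 and 1698 without heifer 2, and the members' count was 0 each time. At an unadjusted p under 0.05 it counted 0 of 5 members and 1 of their 8 probes, against 24.8% of all probes. For 11 against 14 months the calls were 0 of 5 members and 0% of all probes. There the unadjusted counts were 1 of 5 members, which was BCL2, and 2 of 8 probes, against 7.51% of all probes. The median fitted log2 ratio over the 5 genes was 0.32 at 8 months and 0.16 at 11 months, beside 0.004 and -0.01 over all tested probes. Both comparisons use the 14-month RNA of the same heifers, so their values are not independent of each other.

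**Figure D1:**
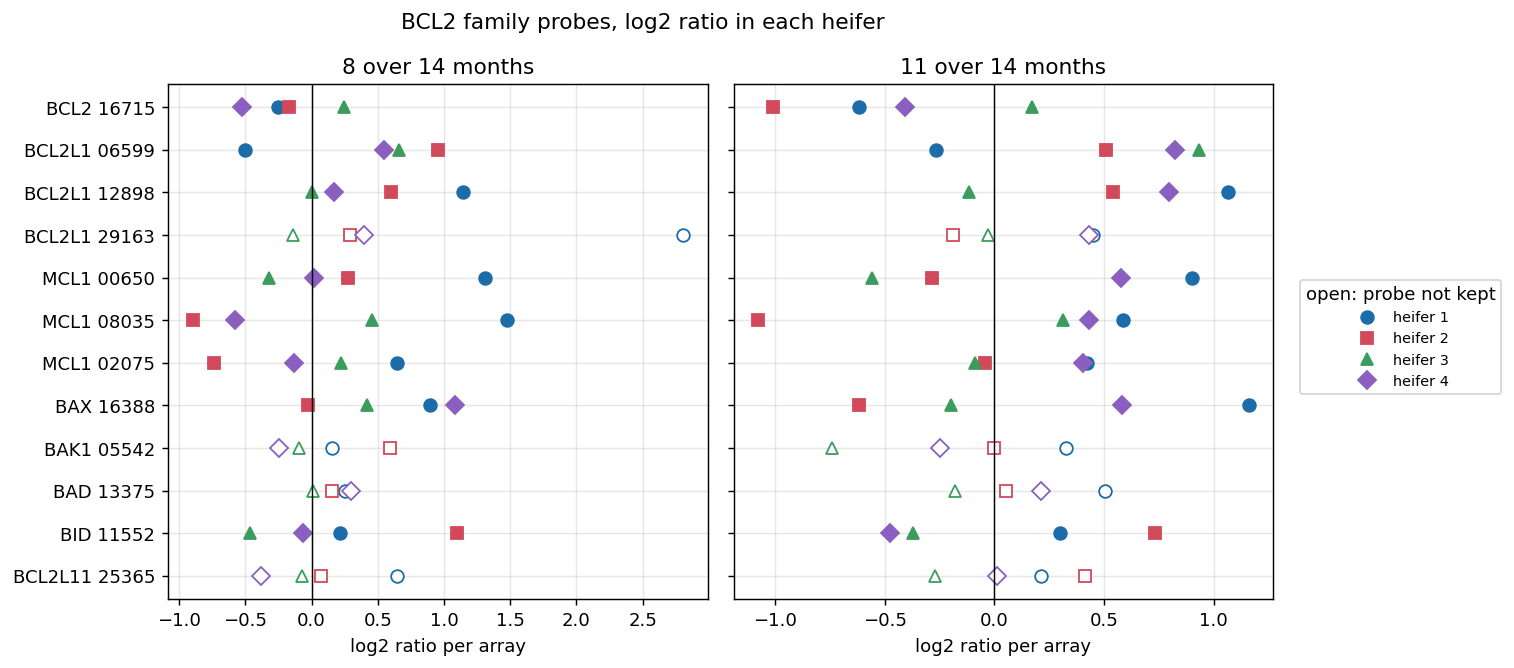
Log2 ratio of the younger age over 14 months (horizontal axis) for each of the 12 probes of the 8 genes, with the comparison of 8 with 14 months on the left and that of 11 with 14 months on the right. Each symbol is 1 heifer on 1 array and open symbols mark the 4 probes that were too dim to be tested; for most probes the heifers lie on both sides of 0, as for MCL1 EMBV3_08035 between -0.90 and 1.48 at 8 months.

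BCL2, the founding pro-survival member, was dim on these arrays. Its normalised intensity (arbitrary scanner units after loess and scaling between arrays) was 166, 289, 163 and 201 in heifers 1 to 4 at 8 months, against 197, 326, 137 and 289 at 14 months on the same arrays. Heifers 1, 2 and 4 read lower at 8 months and heifer 3 read higher, and the ranges of the ages overlapped. The fitted log2 ratio was -0.18 ± 0.32 (SD, n = 4), with a 95% interval from -0.63 to 0.28 (adjusted p = 0.624). At 11 months BCL2 read 125, 182, 163 and 226 in heifers 1 to 4, against 191, 366, 145 and 299 at 14 months. The same 3 heifers were lower, by 0.62, 1.01 and 0.41 on the log2 scale in heifers 1, 2 and 4, the largest gap being in heifer 2. The fitted log2 ratio was -0.47 ± 0.49 (SD, n = 4; adjusted p = 0.661). The probe was above background in 2 of 4 heifers at 8 months and in 1 of 4 at 11 months, against 6 of 8 readings at 14 months, so the younger levels lie near the floor of the measurement. Since the probe was tested on account of its 14-month readings, its ratios are given as a description.

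BCL2L1, whose long product BCL-XL restrains BAX and BAK1, had 2 measurable probes, both fitted higher at the younger ages. Probe EMBV3_06599 read 216, 415, 332 and 343 in heifers 1 to 4 at 8 months, against 306, 215, 211 and 235 at 14 months. Heifer 1 was lower and the other 3 were higher, which gave a log2 ratio of 0.41 ± 0.63 (SD, n = 4; adjusted p = 0.317) and a 95% interval from -0.13 to 0.96. At 11 months the same probe read 241, 284, 310 and 392, against 289, 199, 162 and 221 at 14 months. Again heifer 1 alone was lower, and the log2 ratio was 0.50 ± 0.54 (SD, n = 4; adjusted p = 0.661) with an interval from -0.04 to 1.04.

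The other BCL2L1 probe, EMBV3_12898, read 309, 335, 271 and 327 in heifers 1 to 4 at 8 months, against 140, 221, 271 and 291 at 14 months. Here heifer 1 had the widest gap and heifer 3 had none. The log2 ratio of 0.48 ± 0.51 (SD, n = 4) had a 95% interval from 0.02 to 0.94, an unadjusted p of 0.042 and an adjusted p of 0.184 in limma. It was the single member probe of 8 with a ratio above 0 in all 4 heifers at 8 months, and 31.7% of all probes kept 1 direction in 4 of 4 heifers in that comparison. At 11 months it read 290, 269, 235 and 324, against 139, 185, 255 and 186 at 14 months, with heifer 3 lower and the rest higher. That log2 ratio was 0.57 ± 0.51 (SD, n = 4), with an interval from 0.12 to 1.03, an unadjusted p of 0.0199 and an adjusted p of 0.661 in limma. No member probe kept 1 direction in all 4 heifers at 11 months, against 13.0% of all probes.

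The 2 BCL2L1 probes went opposite ways in heifer 1. There EMBV3_06599 had log2 ratios of -0.50 at 8 months and -0.26 at 11 months, whereas EMBV3_12898 had 1.14 and 1.07. They had the same sign on 5 of 8 arrays and lay between 0.03 and 1.64 apart. Another probe, EMBV3_29163, was above background in 6 of 16 channel readings and was not tested. In heifer 1 it read 600 at 8 months against 86 at 14 months, and in the other heifers its log2 ratio at 8 months lay between -0.14 and 0.40. At 11 months its log2 ratios lay between -0.19 and 0.45, so heifer 1 at 8 months stands alone for that probe. Whether the probes read different transcripts of BCL2L1 was not tested.

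MCL1, a short-lived pro-survival protein that binds BAK1 and BIM, was bright on every array and varied widely between heifers. Probe EMBV3_00650 read 6802, 6404, 4330 and 3956 in heifers 1 to 4 at 8 months, against 2745, 5293, 5414 and 3896 at 14 months. Heifer 1 was clearly higher at 8 months, heifer 3 was lower, heifer 4 was nearly level, and the ranges overlapped. The log2 ratio was 0.32 ± 0.70 (SD, n = 4; adjusted p = 0.511) with a 95% interval from -0.31 to 0.95. At 11 months it read 5087, 8729, 2645 and 6473, against 2726, 10620, 3888 and 4335 at 14 months. Heifers 1 and 4 were higher and heifers 2 and 3 lower, for a log2 ratio of 0.16 ± 0.69 (SD, n = 4; adjusted p = 0.877) and an interval from -0.47 to 0.79.

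The direction of MCL1 depended on which arrays entered the fit. Leaving out heifer 1 gave fitted log2 ratios of 0.002 at 8 months and -0.08 at 11 months, and leaving out heifer 4 gave -0.14 at 11 months. Without the 4 arrays highest in cilia genes (heifers 1 and 2 at 8 months, heifers 1 and 4 at 11 months) the fitted ratios were -0.01 and -0.42, while the plain mean of the 8-month arrays left, which share a dye orientation, was -0.15. The repeat reading of 14-month RNA also moved. In heifer 2 it was lower by 1.01 on the log2 scale on the array shared with 8 months than on the one shared with 11 months, while the median absolute gap over all tested probes was 0.22.

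The other MCL1 probes did not follow the first one closely. EMBV3_08035 read 3281, 2489, 5495 and 1974 in heifers 1 to 4 at 8 months, against 1177, 4637, 4004 and 2950 at 14 months. At 11 months it read 2551, 3079, 2812 and 2496, against 1695, 6496, 2261 and 1853 at 14 months. Heifers 1 and 3 were thus higher at 8 months, and all but heifer 2 were higher at 11 months. Its fitted log2 ratios were 0.11 ± 1.08 at 8 months and 0.06 ± 0.77 at 11 months (SD, n = 4 each; adjusted p = 0.889 and 0.971). EMBV3_02075 had fitted log2 ratios of 0.001 ± 0.58 at 8 months and 0.17 ± 0.28 at 11 months (SD, n = 4 each; adjusted p = 0.999 and 0.835). The 3 probes shared a sign on 4 of 8 arrays and lay between 0.17 and 1.17 apart.

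Leukocyte genes moved on some of the same arrays as MCL1. The median log2 ratio of 11 measured leukocyte markers was 0.85, -1.68, 0.001 and -0.56 in heifers 1 to 4 at 8 months, and -0.42, -1.32, -0.18 and 0.02 at 11 months. Their summed normalised intensity ran from 19325 to 38988 at 8 months against 19574 to 49320 at 14 months, and from 11166 to 22036 at 11 months against 15720 to 68858 at 14 months. ITGAM, ITGB2 and CD52 were not bright enough to be tested. Heifer 2, with the lowest leukocyte medians of both sets, also had the lowest ratios of MCL1 probe EMBV3_08035, -0.90 at 8 months and -1.08 at 11 months. The probe standing for MCL1, EMBV3_00650, was lowest in heifer 3 in both sets instead, with -0.32 and -0.56. The part of leukocytes in these values was not tested. A fit with their median as a covariate called no member, but no other fit called one either, so that result does not bear on leukocytes.

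**Figure D2:**
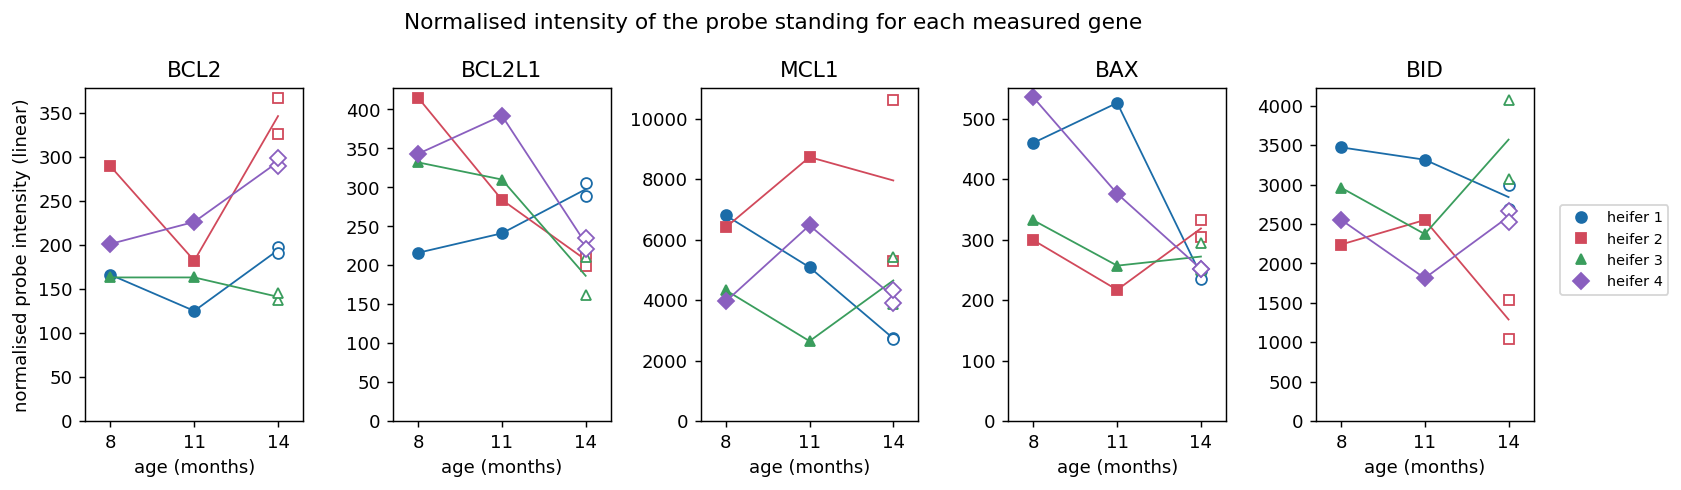
Normalised intensity (linear, arbitrary units, from 0) of the probe standing for each of the 5 measured genes at 8, 11 and 14 months; each colour is a heifer, filled symbols are the younger ages, open symbols the 2 readings at 14 months, and lines run to their mean. The lines cross in each gene, and the 2 readings of MCL1 at 14 months in heifer 2 were 5293 and 10620.

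BAX, which forms the mitochondrial pore, had the highest fitted ratio of the members at 8 months. It read 460, 299, 332 and 535 in heifers 1 to 4 at 8 months, against 248, 305, 249 and 252 at 14 months. Heifers 1, 3 and 4 were higher and heifer 2 was level, and the lowest reading at 8 months lay just below the highest at 14 months. The log2 ratio of 0.59 ± 0.50 (SD, n = 4) is 1.51-fold, with a 95% interval from 0.948-fold to 2.40-fold and an adjusted p of 0.252. At 11 months BAX read 526, 217, 257 and 376, against 235, 332, 295 and 251 at 14 months. Heifers 1 and 4 were higher and heifers 2 and 3 lower, with a log2 ratio of 0.23 ± 0.79 (SD, n = 4; adjusted p = 0.824) and an interval from -0.44 to 0.90. Its level averaged 407 ± 110 at 8 months, 344 ± 139 at 11 months and 271 ± 34.2 at 14 months (SD, n = 4 heifers each), and the spread within the younger ages covers the gaps between neighbouring ages.

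BAX was above background in 16 of 16 channel readings but dim, at 107.5% to 203.6% of the threshold. BCL2L1 probe EMBV3_06599 lay at 89.9% to 195.4%. The 14-month readings of BAX repeated closely, with a median absolute gap of 0.10 on the log2 scale between the arrays of a heifer. The log2 ratios of the heifers were spread more widely than that at both younger ages. When medians of squamous and cilia genes entered as covariates, the ratio at 8 months was -0.18 (adjusted p = 0.936), and without the 4 arrays highest in cilia genes that at 11 months was -0.41. The squamous medians were themselves higher at 8 months, so that covariate and the age term overlap. BAK1, the other effector, was not above background in any of 16 channel readings, which reached 64.8% to 90.4% of the threshold. No ratio is given for it.

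BID, a BH3-only protein that death receptor signalling cleaves to an active form, was well measured and showed no common direction. It read 3472, 2239, 2961 and 2554 in heifers 1 to 4 at 8 months, against 2990, 1044, 4075 and 2664 at 14 months. Heifer 2 was higher, heifer 3 was lower and the others were close to level. The log2 ratio was 0.20 ± 0.66 (SD, n = 4; adjusted p = 0.549) with a 95% interval from -0.23 to 0.62. At 11 months it read 3315, 2551, 2372 and 1813, against 2692, 1534, 3065 and 2522 at 14 months. Heifers 1 and 2 were higher and heifers 3 and 4 lower, and the log2 ratio was 0.05 ± 0.57 (SD, n = 4; adjusted p = 0.954), with an interval from -0.38 to 0.47. Ratios at both ages were above 0 in heifers 1 and 2, whose younger RNA carried Cy5. They were below 0 in heifers 3 and 4, whose younger RNA carried Cy3. Heifer and dye orientation cannot be told apart in that split, so each SD may hold both.

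The remaining BH3-only members gave no tested value. BAD, which is held inactive by phosphorylation and binds BCL2 and BCL-XL, was below background in 16 of 16 channel readings, at 50% to 87.2% of the threshold. BCL2L11, whose product BIM binds all the pro-survival members, was above background in 6 of 16, at 78.7% to 114% of the threshold. Its normalised intensity lay between 129 and 229 over all readings. With BAK1, BAD and BCL2L11 too dim, the pro-death side of the members is measured through BAX and BID alone.

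Between 8 and 11 months no member passed, with 0 of 5 members at an unadjusted p under 0.05 in limma, against 0% of all probes called and 5.33% at that unadjusted p. The fitted log2 differences ran from -0.09 for BCL2L1 to 0.36 for BAX, which had a 95% interval from -0.51 to 1.23. These ages lie on different arrays and are linked through the 14-month RNA, so age and array set cannot be told apart in this contrast.

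To compare pro-survival with pro-death members, the median log2 ratio of BAX and BID was subtracted on each array from that of BCL2, BCL2L1 and MCL1. At 8 months the difference was -0.81, -0.26, 0.27 and -0.49 in heifers 1 to 4, a mean of -0.32 ± 0.45 (SD, n = 4). At 11 months it was -0.99, -0.34, 0.45 and 0.53, a mean of -0.09 ± 0.72 (SD, n = 4). The pro-survival members were thus relatively lower in 3 of 4 heifers at 8 months and in 2 of 4 at 11 months, and neither mean is larger than its SD. With BCL2 left out of the pro-survival side, a choice made after seeing the data, the means were -0.03 ± 0.19 at 8 months and 0.19 ± 0.47 at 11 months (SD, n = 4 each). With all 8 members regardless of brightness they were 0.005 ± 0.36 and 0.02 ± 0.57. Heifer 3 had a difference above 0 and heifers 1 and 2 one below 0 at both ages. Heifer 4 was below 0 at 8 months and above 0 at 11 months. The signs at 11 months thus split by dye orientation, as those of BID did, whereas heifer 4 broke that split at 8 months. No dye term enters these differences, so heifer and dye orientation cannot be told apart in them. These are descriptions of 5 genes on each array, and no test was made on them.

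**Figure D3:**
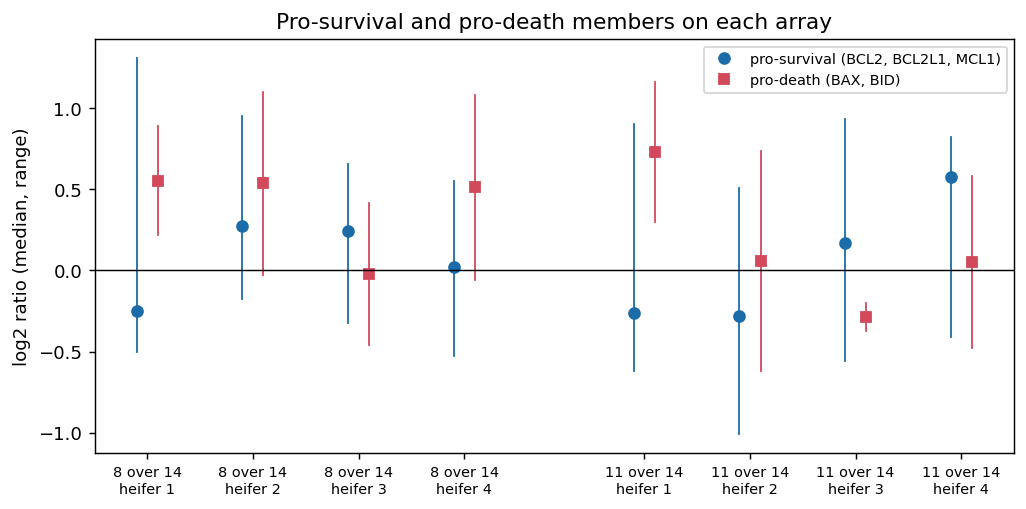
Median (symbol) and range (line) of the log2 ratio of 3 pro-survival members (circles) and 2 pro-death members (squares) on each array, younger age over 14 months. The ranges of the groups overlap on 8 of 8 arrays, and the pro-survival median minus the pro-death median lies between -0.99 and 0.53.

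Outside the 8 genes, 2 of 37 measured family and pathway genes passed at 8 months, BOK and AKT2, against 3.84% of all tested probes. BOK, a BAX-like protein that can permeabilise the mitochondrial membrane, read 1036, 763, 648 and 1014 in heifers 1 to 4 at 8 months, against 222, 451, 317 and 404 at 14 months. Every reading at 8 months was above every one at 14 months. The log2 ratio of 1.33 ± 0.64 (SD, n = 4) is 2.52-fold, with a 95% interval from 1.58-fold to 4.03-fold and an adjusted p of 0.0468. At 11 months BOK read 375, 1443, 262 and 562, against 271, 528, 333 and 394 at 14 months. Heifer 2 was far above the rest, heifer 3 was lower than at 14 months, and the log2 ratio of 0.52 ± 0.73 (SD, n = 4) did not pass (adjusted p = 0.664). The log2 difference between 8 and 11 months, tested directly, was 0.81 with an interval from -0.06 to 1.69 (adjusted p = 0.951).

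The BOK ratios at 8 months, 2.22, 0.76, 1.03 and 1.33 in heifers 1 to 4, ran in the same order over heifers as the squamous marker medians of 3.50, 0.79, 1.81 and 3.15. At 11 months the orders differed, since BOK was highest in heifer 2 (1.45) and the squamous median in heifer 4 (0.77). The summed intensity of the 14 measured squamous genes was 25271 to 171059 at 8 months against 6631 to 12073 at 14 months, and EVPL, SPRR3, DSG3 and DSC3 were among the listed genes without a tested probe. When medians of squamous and cilia genes entered the fit as covariates, the BOK ratio was 0.12 (adjusted p = 0.947). The squamous medians were 0.79 to 3.50 at 8 months and 0.06 to 0.77 at 11 months, so that covariate and the 8-month term overlap. With these covariates 0 of all tested probes passed at 8 months. The part of squamous cells in the BOK ratio was not tested. Without the 4 arrays highest in cilia genes the fitted value was 2.08 (adjusted p = 0.000663, with 1 residual degree of freedom). The 8-month arrays left in that fit, of heifers 3 and 4, both held the younger RNA in Cy3 and had a mean BOK ratio of 1.18, so the fitted value also rests on a dye term taken from the 11-month arrays of heifers 2 and 3. BOK fell short of the threshold without heifer 1 (adjusted p = 0.0769), heifer 3 (adjusted p = 0.239) or heifer 4 (adjusted p = 0.235), with fitted ratios of 1.12, 1.39 and 1.19. It also fell short with no background correction (adjusted p = 0.0628), no filter on dim probes (adjusted p = 0.0532) and no dye term (adjusted p = 0.0598). With mean pixel intensities the ratio was 0.97 (adjusted p = 0.0934). In all, BOK passed in 12 of 22 alternative settings.

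**Figure D4:**
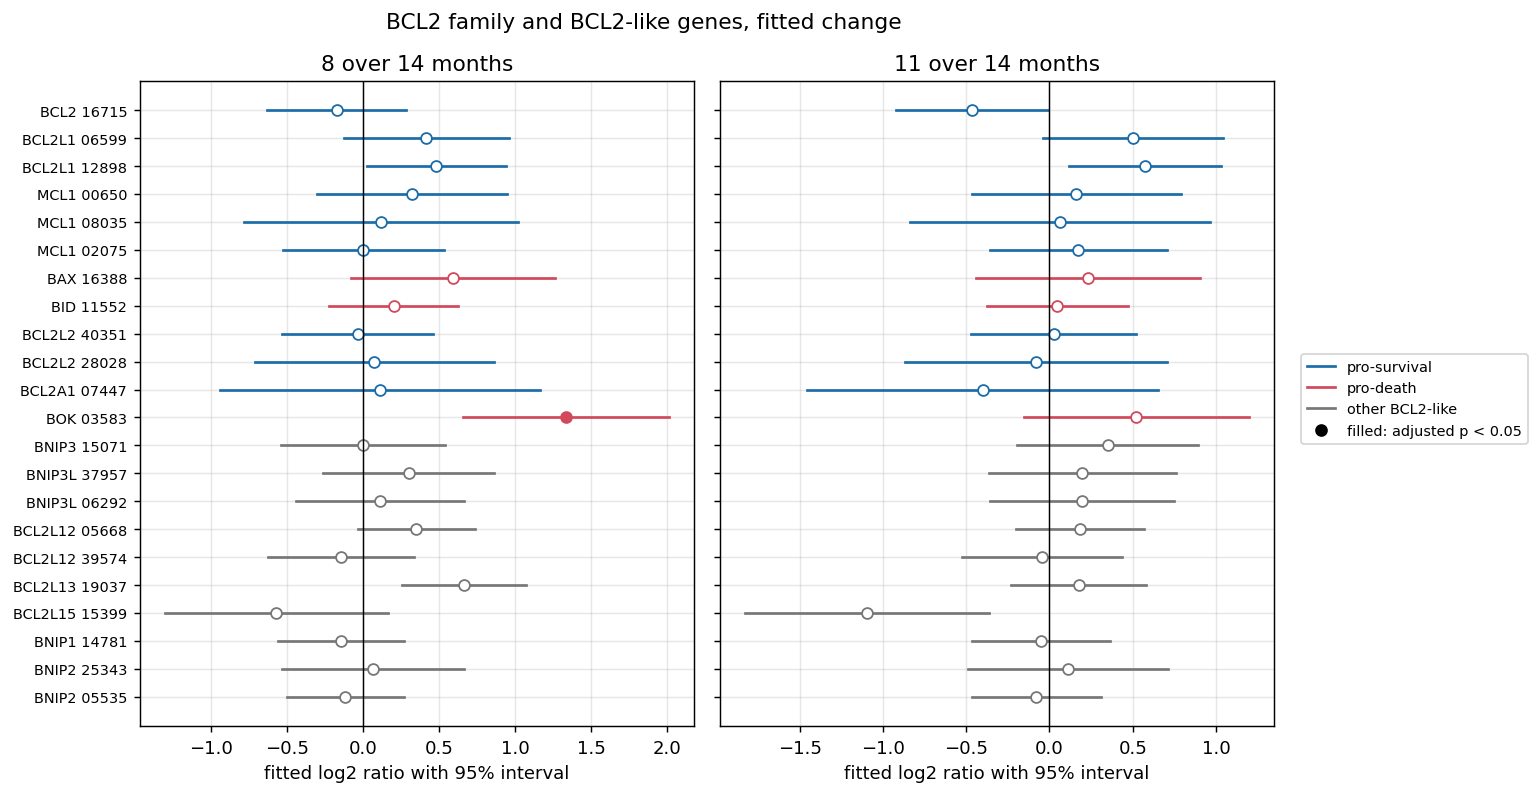
Fitted log2 ratio (horizontal axis, circle) with its 95% interval (line) for each tested probe of the BCL2 family and BCL2-like genes, 8 over 14 months on the left and 11 over 14 months on the right. The filled circle marks the single probe with an adjusted p under 0.05, BOK at 8 months with a log2 ratio of 1.33.

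The other pro-survival relatives gave no call. BCL2L2, which encodes BCL-W, had fitted log2 ratios of -0.04 at 8 months and 0.03 at 11 months. Its 8-month ratios were -0.45, 0.16, -0.50 and 0.64 in heifers 1 to 4. A dimmer tested BCL2L2 probe had fitted ratios of 0.07 and -0.08, with -1.29, -0.40, 0.96 and 1.01 at 8 months. BCL2A1, a pro-survival gene known from blood cells, had 8-month log2 ratios of 2.20, -1.29, 0.19 and -0.65 in heifers 1 to 4, with -0.03, -0.78, -0.38 and -0.40 at 11 months. Its order over heifers at 8 months was that of the leukocyte medians given above, whereas at 11 months BCL2A1 was highest in heifer 1 and the leukocyte median in heifer 4. Its fitted values of 0.11 and -0.40 had adjusted p of 0.907 and 0.806. HRK and BMF, both BH3-only genes, had probes too dim to be tested. No probe carried the symbols BCL2L10, BBC3, PMAIP1 or BIK. Over this wider family of 5 pro-survival and 3 pro-death genes, the difference of medians at 8 months was -1.14, -0.60, -0.22 and -1.06, and at 11 months -0.73, -1.02, 0.52 and -0.28. It was below 0 in 4 of 4 heifers at 8 months and in 3 of 4 at 11 months. The pro-death side holds BOK, already called higher at 8 months. The pro-survival side holds BCL2, whose lower younger value is in part built into its selection. These counts are therefore in part fixed by the choice of genes and are a description only.

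Of 8 further BCL2-like genes, 7 were measured and 0 passed in either comparison. BCL2L13, a mitochondrial outer membrane protein with a part in mitophagy, had log2 ratios of 0.28, 0.62, 0.67 and 1.09 at 8 months, above 0 in all heifers, with a fitted 0.66 ± 0.33 (SD, n = 4; adjusted p = 0.0737). BCL2L15 had -0.59, -1.29, -1.41 and -1.10 at 11 months, with a fitted -1.09 ± 0.36 (SD, n = 4; adjusted p = 0.661). It was above background in 2 of 4 heifers at 8 months and 1 of 4 at 11 months, against 8 of 8 readings at 14 months. Like BCL2 it was tested only through the age at which it is high, so its direction is in part built in. The mitophagy receptors BNIP3 and BNIP3L had fitted ratios of -0.002 and 0.30 at 8 months and 0.35 and 0.20 at 11 months. BCL2L12 had 0.35 and 0.18, BNIP1 -0.15 and -0.05, and BNIP2 0.06 and 0.11. Dimmer tested probes gave -0.145 and -0.045 for BCL2L12, -0.12 and -0.08 for BNIP2, and 0.11 and 0.20 for BNIP3L. BCL2L14 was too dim to be tested.

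Downstream of the family, 12 of 15 genes of the mitochondrial pathway were measured and 0 passed in either comparison. At 8 months 10 of the 12 were fitted lower, with a median log2 ratio of -0.31, and 3 had an unadjusted p under 0.05 in limma. That is near the share of 24.8% over all probes. VDAC1 and VDAC2 encode channels of the outer membrane, and VDAC2 is known to bind BAK1. VDAC1 had log2 ratios of -1.03, -0.62, -0.89 and -0.59 at 8 months, with a fitted -0.78 ± 0.21 (SD, n = 4; adjusted p = 0.0735). VDAC2 had -0.59, -0.30, -0.25 and -1.31, with a fitted -0.61 ± 0.49 (SD, n = 4; adjusted p = 0.11). ENDOG, a mitochondrial nuclease, had 0.80, 0.65, 0.64 and 0.94, with a fitted 0.76 ± 0.14 (SD, n = 4; adjusted p = 0.18). XIAP, which inhibits caspases, had a fitted -0.34, and the initiator caspase gene CASP9 0.41, with 0.145 on a dimmer tested CASP9 probe.

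At 11 months the 5 smallest p of these genes were those of VDAC1, XIAP, VDAC3, BIRC3 and ENDOG. The VDAC3 probe carries the older symbol VDAC1P5 in the platform annotation, which RefSeq lists as a synonym of VDAC3. VDAC1 again read lower in all 4 heifers, with log2 ratios of -0.76, -0.75, -0.02 and -1.16 and a fitted -0.67 (adjusted p = 0.661). XIAP had a fitted -0.30, VDAC3 -0.28, BIRC3, another caspase inhibitor gene, -0.22, and ENDOG 0.26. The median over the 12 genes was -0.11.

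Among 15 measured regulators of the family, 1 rose and 0 fell at 8 months, against 3.84% of all tested probes called. AKT2, a kinase that can phosphorylate BAD, had log2 ratios of 2.16, 2.31, 1.62 and 1.68 in heifers 1 to 4, with a fitted 1.94 ± 0.34 (SD, n = 4; adjusted p = 0.0178), which is 3.85-fold. At 11 months its ratios were 1.99, 1.60, -0.13 and -1.08, with a fitted 0.59 ± 1.45 (SD, n = 4; adjusted p = 0.661). There heifers 1 and 2, whose younger RNA carried Cy5, were high, and heifers 3 and 4, whose younger RNA carried Cy3, were at or below 0. A second AKT2 probe was too dim to be tested. The AKT2 rise fell short of the threshold without heifer 3 (ratio 1.76, adjusted p = 0.203) or heifer 4 (ratio 1.82, adjusted p = 0.0771), and with the squamous and cilia covariates (ratio 2.87, adjusted p = 0.145).

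In all, 8 of the 15 regulators had an unadjusted p under 0.05 in limma at 8 months, against 24.8% of all probes. Besides AKT2, those with the smallest p were PPP3CA, a catalytic subunit of calcineurin, which dephosphorylates BAD, with a fitted log2 ratio of 0.88 (adjusted p = 0.0737), and MAPK8, the stress kinase JNK1, with -1.49 (adjusted p = 0.0894). YWHAB, a 14-3-3 protein of the kind that holds phosphorylated BAD, had 0.70 (adjusted p = 0.109). DDIT3, the stress factor CHOP, had -0.67 (adjusted p = 0.135) on its brightest probe. Its other tested probes had -0.20 (adjusted p = 0.553) and 0.09 (adjusted p = 0.769). At 11 months 2 of the 15 had an unadjusted p under 0.05, against 7.51% of all probes. They were YWHAZ, another 14-3-3 protein, with 0.63, and PPP3CA with 0.65. MAPK8 followed with -0.95, AKT2 with 0.59 and BAG1, a BCL2-binding cochaperone, with 0.30 (adjusted p from 0.661 to 0.669 for these 5).

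**Figure D5:**
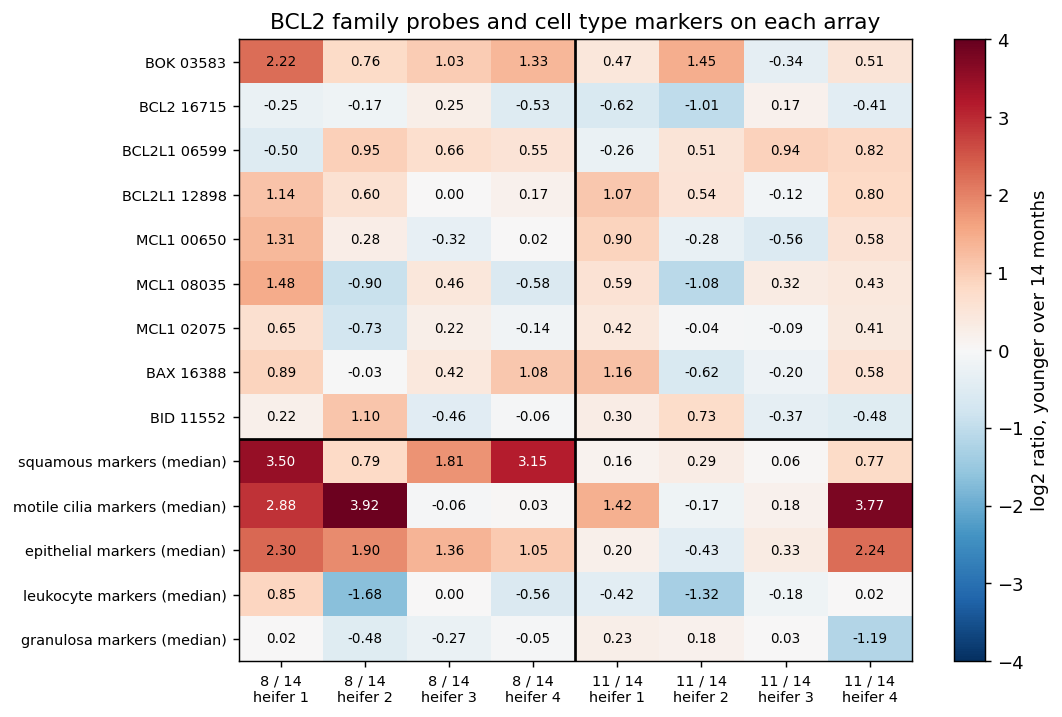
Log2 ratio of the younger age over 14 months on each of the 8 arrays (columns) for BOK and the 8 tested member probes (upper rows) and the median over markers of 5 cell types (lower rows), with red above 0 and blue below. BOK is highest in heifer 1 at 8 months (2.22), where the squamous median is also highest (3.50), and MCL1 EMBV3_08035 is lowest in heifer 2 at 11 months (-1.08).

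The genes whose ratios ran most like MCL1 EMBV3_00650 over the 8 arrays, among 10155 genes, were VSIG10L, PNLIP and RECQL5, with Pearson correlations of 0.961, 0.950 and 0.947. For BAX they were MUL1, IREB2 and LOC615271, with 0.975, 0.970 and 0.956. Each correlation is a description over 8 arrays that share heifers and 14-month RNA.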

How the data were processed

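Spot intensities (median and mean pixel values with local background, not normalised) were read from the scanner tables that the authors deposited. For image software, no name is given in these sources. Spots marked as ignored by another deposited column, 22 to 59 per array, were left out. The authors also deposited a table of log2 ratios, which followed Cy5 over Cy3 of the background-subtracted, loess-normalised intensities (correlations over probes 0.9994 to 0.9999, column medians -0.0207 to 0.000832) and served as an alternative. Per the labels, the Cy5 channel held the younger RNA of heifers 1 and 2 and the 14-month RNA of heifers 3 and 4. Every ratio was turned to younger over 14 months.

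Median intensities were corrected by normexp (offset 50) and normalised by loess within arrays, with control spots at weight 0, in limma 3.58.1 under R 4.3.3. A probe was above background where its raw median exceeded the mean plus 2 SD of 153 negative control spots. Probes that did so in 3 or 4 heifers at any age were tested (at 14 months, on either array). A linear model on all 8 arrays held terms for 8 against 14 months, 11 against 14 months and dye, with the heifer as a random block (correlation 0.159, residual degrees of freedom 5, prior 3.71). Benjamini-Hochberg adjustment ran over all tested probes, with a threshold of 0.05. Replicate numbers stand for animals named in the labels, so they pair the arrays. Deviations from group means correlated at 0.378, 0.275, 0.446 and -0.11 in heifers 1 to 4. Each heifer had the same dye orientation in both sets and its own 14-month RNA in both. That alone can raise these correlations, so they do not test the pairing. The p-values rest on the spread between 8 arrays of these 4 animals, pooled over both comparisons and moderated over probes. Precision is limited by there being 8 arrays.

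Gene symbols are those of an old platform annotation: 21790 probes had 1 and 22004 none, and the symbols of 21549 matched the RefSeq table of ARS-UCD2.0. Where RefSeq lists an older symbol as a synonym of 1 gene, the probe took the current symbol, as VDAC3 did for VDAC1P5. The brightest tested probe stood for a gene. Intensities by channel were scaled between arrays with Aquantile. Every member and measured family gene is named, and of the 2 pathway lists those past the threshold and otherwise the 5 smallest p. The 3 genes most correlated with MCL1 and with BAX are named too. The members and lists were chosen with earlier results of these data known. Alternatives covered background correction, normalisation, filters, pixel summary, the authors' table, block, dye, arrays, weights, marker covariates, probe choice and each heifer left out.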

Additional observations from a re-analysis of the deposited data

Results flagged for a closer look

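Of 90 sets of 4 heifers examined, 5 had 1 heifer far from the other 3, judged by its gap to the nearest other relative to the whole range. Chance marks about 1 in 20 such sets. At 8 months heifer 1 stood apart for APAF1, the adaptor of the apoptosome, with a log2 ratio of -0.61 against 0.09 to 0.22 in the other heifers. Heifer 1 also stood apart for the channel gene VDAC3 (VDAC1P5 in the platform annotation), with -1.25 against -0.14 to -0.09. At 11 months heifer 2 stood apart for MCL1 probe EMBV3_08035, with -1.08 against 0.32 to 0.59 in the other heifers. Heifer 2 also stood apart for YWHAB, with -0.33 against 0.38 to 0.47. Heifer 4 stood apart for BCL2L12, with -0.31 against 0.28 to 0.40.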

How the results depend on the processing

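No member passed the threshold under any of the 22 alternatives run for 8 against 14 and for 11 against 14 months, or the 21 for 8 against 11 months. BCL2 and BCL2L1 had no value where every reading had to be above background. Among the 15 alternatives that change the values, probes or arrays behind it, the difference between pro-survival and pro-death members ran from -0.52 to 0.005 at 8 months, above 0 under 1. At 11 months it ran from -0.29 to 0.21, above 0 under 9 of 15. Changes to the model alone cannot move it. Without the replicate block 989 probes passed at 8 months, BOK kept its ratio of 1.33 (adjusted p = 0.0379), and no call among the named genes changed. Signals near background limit BCL2, BCL2L1, BAX, BCL2L11, BAD and BAK1. The following alternatives were chosen after seeing the data: the leukocyte covariate, leaving BCL2 out of that difference, leaving out heifers 1 and 2 at 8 months, and leaving out heifers 1 and 4 at 11 months. The cause of each change below was not tested.

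Against 871 probes at 8 months, 1709 passed with the array median in place of loess, 2019 with a dye term per comparison, 3232 with only the arrays of the comparison, 3504 with array weights and 1373 with the leukocyte covariate. Without the 4 arrays high in cilia genes 3397 passed in a fit with 1 residual degree of freedom and no block, and 0 with the squamous and cilia covariates. The squamous medians were higher at 8 months, so those covariates overlap with the 8-month term. In the fits that leave out heifers 1 and 2 at 8 months, the remaining 8-month arrays share a dye orientation, so their 8-month values rest on a dye term from the 11-month arrays. Leaving out each heifer in turn gave 0 to 1698, with 0 without heifer 3, 36 without heifer 4 and 1698 without heifer 2. At 11 months 2742 probes passed without the 4 arrays. Between 8 and 11 months 19 passed with a dye term per comparison, 1 with array weights and 141 without the 4 arrays.

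Of the 37 wider family and pathway genes, 2 passed at 8 months, against 3.84% of all tested probes. The count was 1 with no background correction, no filter, no dye term or either pair of arrays left out, 4 with the array median or the leukocyte covariate, 7 with only the arrays of the comparison, 9 with array weights, 8 without the 4 arrays, 0 with the squamous and cilia covariates, and 0 to 5 with each heifer left out. At 11 months 8 passed without the 4 arrays, against 0.

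Some ratios that had not passed changed sign. At 8 months MCL1 was -0.014 without the 4 arrays, -0.002 without heifers 1 and 2, and -0.89 under the squamous and cilia covariates, where BAX was -0.18 and BCL2 0.13. At 11 months MCL1 was -0.42 without the 4 arrays, -0.43 without heifers 1 and 4, and -0.23 under the squamous and cilia covariates. BAX was -0.41 without the 4 arrays and -0.42 without heifers 1 and 4. BID was -0.16 with mean pixel intensities and -0.13 with the leukocyte covariate. Leaving out each heifer in turn, BCL2 ran from -0.31 to 0.06 and BID from -0.002 to 0.40 at 8 months. At 11 months MCL1 then ran from -0.14 to 0.50, BAX from -0.21 to 0.61 and BID from -0.082 to 0.172.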
